A study of Mus musculus with 3 samples.

Results

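The genes described here are 31 genes of sterol and fatty acid synthesis, chosen by name from textbook pathways and matched by symbol among the 31053 genes measured in cells of the adult mouse cochlea. All 31 were found. They fall into 4 groups by role, with 7 genes of the mevalonate steps, 11 of the squalene and sterol steps, 4 of SREBP control and sterol transfer, and 9 of fatty acid synthesis, elongation and desaturation. Cochlear explants came from rtTA/tet-on-Myc/tet-on-NICD mice, 4 to 6 weeks old, in which doxycycline (Dox) switches on 2 transgenes, the transcription factor Myc and the intracellular domain of the Notch receptor (NICD). Whole explants were kept for 4 days with Dox at 2 µg/ml or with sterile water as the control, and the sensory epithelium was then cut out, dissociated and captured for single-cell RNA sequencing. There were 2 Dox libraries and 1 control library, and each pooled 4 cultures. All 3 carried the transgenes, so effects of the drug and of the transgenes cannot be told apart. What drives rtTA is not named in the labels.

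The libraries held 788 and 1095 barcodes with 20309102 and 33385927 unique molecule counts (UMIs) with Dox, and 512 barcodes with 5436731 UMIs in the control. After filtering, 636 and 997 Dox cells (medians of 16724.5 and 27579 UMIs) and 363 control cells (median of 6887 UMIs) were kept. Of the kept barcodes, 101 and 92 in the Dox libraries and 125 in the control were also present in another library. The shallower copies held 0.259% to 1.68% of the UMIs of the deepest copy, and they carried at most 0.467% of a library's UMIs in the 3 named classes and the pooled epithelium compared below, and 1.15% over all control cells. Cells were clustered without the 31 genes and without 77 related genes among the variable genes, and clusters were named from marker genes. The label names the tissue as sensory epithelium, but glia-like, macrophage-like, fibroblast-like and pericyte-like cells were present as well. Only 3 named classes had at least 20 cells in each library. Glia-like cells (38 and 50 with Dox, 28 in the control) had the glial genes Pmp22, Cdh19 and Foxd3. Supporting cell-like cells (103 and 108 with Dox, 38 in the control) joined a cluster with Gjb2, Gjb6 and Sox2 and another led by Epyc. Macrophage-like cells (49 and 29 with Dox, 23 in the control) had Lyz2, C1qa and Csf1r.

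Sterols and isoprenoids are built from acetyl-CoA through mevalonate, and the last isoprenoid of the shared path is joined head to head into squalene, which is closed into lanosterol and trimmed to cholesterol. Fatty acids branch off from the same acetyl-CoA. Transcription of both branches is driven by the SREBP factors, which Insig proteins hold in the endoplasmic reticulum while sterols are plentiful. In peripheral nerve, Schwann cells make much of their own cholesterol, a major lipid of myelin.

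RefSeq promoter windows of GRCm38.p6 (250 bases before to 50 bases after the annotated start) were matched for 24 of the 31 genes, in 29 windows. Those of 4 genes that rose in the comparisons below are shown: Idi1 (chr13:8885356-8885655, plus strand) and Hmgcs1 (chr13:119690101-119690400, plus strand), which both rose in glia-like and in supporting cell-like cells, Cyp51 (chr5:4104648-4104947, minus strand), a sterol step enzyme that did the same, and Insig1 (chr5:28071162-28071461, plus strand), the SREBP retention protein, which rose in glia-like cells. Capitals mark sterol regulatory element letters (TCACNCCAC or CACCCCAC), the E-box CACGTG, which MYC can bind, and CCAAT, the NF-Y motif, on either strand.
Idi1: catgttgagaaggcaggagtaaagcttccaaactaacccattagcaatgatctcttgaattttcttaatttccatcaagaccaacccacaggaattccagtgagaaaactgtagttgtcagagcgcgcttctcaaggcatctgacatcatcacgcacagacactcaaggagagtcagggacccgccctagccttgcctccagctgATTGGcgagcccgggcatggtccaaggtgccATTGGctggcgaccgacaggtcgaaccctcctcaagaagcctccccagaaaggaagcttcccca
Hmgcs1: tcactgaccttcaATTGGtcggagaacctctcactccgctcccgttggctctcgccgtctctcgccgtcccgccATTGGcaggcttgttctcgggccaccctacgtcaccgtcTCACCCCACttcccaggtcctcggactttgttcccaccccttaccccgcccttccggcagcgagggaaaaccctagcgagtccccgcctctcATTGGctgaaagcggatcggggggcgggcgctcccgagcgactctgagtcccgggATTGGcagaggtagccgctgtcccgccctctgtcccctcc
Cyp51: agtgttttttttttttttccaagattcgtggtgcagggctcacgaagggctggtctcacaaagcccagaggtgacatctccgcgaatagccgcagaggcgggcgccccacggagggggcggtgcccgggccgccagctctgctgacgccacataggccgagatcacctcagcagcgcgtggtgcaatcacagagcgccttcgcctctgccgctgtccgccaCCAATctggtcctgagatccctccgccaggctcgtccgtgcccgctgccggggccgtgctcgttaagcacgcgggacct
Insig1: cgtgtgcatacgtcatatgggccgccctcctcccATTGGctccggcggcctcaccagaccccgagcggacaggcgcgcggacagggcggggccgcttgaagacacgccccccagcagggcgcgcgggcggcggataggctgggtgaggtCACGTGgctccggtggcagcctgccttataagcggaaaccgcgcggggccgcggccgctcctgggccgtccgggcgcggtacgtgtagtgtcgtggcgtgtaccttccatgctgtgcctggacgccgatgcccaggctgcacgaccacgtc

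Motifs were searched on both strands, and CACCCCAC overlaps TCACNCCAC. CCAAT stood in 21 of the 29 windows, against 37.4% of all 32851 promoter windows. GGGCGG, the Sp1 motif, which is not in capitals, stood in 21 of the 29, against 35.7% of all. The E-box CACGTG was found in the promoters of 5 genes (Dhcr7, Elovl5, Hsd17b7, Insig1 and Sc5d), against 7.15% of all windows. CACCCCAC was found in Acat2 and Hmgcs1 (2.87% of all windows) and TCACNCCAC in Hmgcs1 alone (1.24%). A longer form of the sterol regulatory element was also searched and stood in 0 of the 29 windows, against 0.0913% of all windows. Only exact letters were searched, so a window without a match may still hold a variant of the element. The matches describe letters in the windows and no binding was measured.

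In glia-like cells, 6 of the 27 genes that passed the filter on low counts rose with Dox and none fell. Over all 7618 genes tested in this class, 3.27% rose and 3.64% fell, 6.9% in all. The 6 were Idi1, Hmgcs1, Fdft1, Cyp51, Insig1 and Fasn, so every role group had a member that rose. The median difference was 1.12 on the log2 scale over the 27 genes and 0.02 over all genes tested. Levels below are CPM, UMIs per 1000000 UMIs scaled by the TMM method between libraries. Differences are edgeR estimates of Dox against control. Their standard error (SE) was derived from the test, as the absolute difference over the square root of edgeR's F statistic. It is therefore no measure of spread separate from the p-value. A gene was called at a Benjamini-Hochberg adjusted p of 0.05 or less. The p-values rest on how far the 2 Dox libraries lie apart, with the lone control assumed to vary like them. The edgeR fit also moderates each gene's spread toward that of all genes tested, so its p-values do not rest on the gene's own spread alone.

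At an unadjusted edgeR p of 0.05 or less, 13 of the 27 genes were higher and 2 lower. The share of all genes at that threshold is not given here, nor for the unadjusted counts of other single classes below. The shares above are for the adjusted threshold and are no background for these counts. DESeq2 called Idi1 alone, and no gene as fallen. Scaling the libraries by total counts alone, which moved the median of all genes in the class to -0.22, gave 6 risen and 2 fallen, the 2 being Scd1 and Scd2.

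Among the mevalonate genes, Idi1, the isomerase that makes dimethylallyl diphosphate (chromosome 13, 8885501 to 8892451, plus strand), had 126 and 123 CPM in the Dox libraries and 18.6 in the control, where 6 UMIs were counted. Both Dox libraries lay far above the control and close to each other. The log2 difference was 2.73 (SE 0.46; adjusted p of 0.00183 in edgeR's quasi-likelihood test). Hmgcs1, the synthase that makes HMG-CoA (chromosome 13, 119690379 to 119708260, plus strand), had 256 and 157 CPM with Dox and 71.1 in the control. Dox replicate 1 was the highest, and both exceeded the control, with a log2 difference of 1.55 (SE 0.39; edgeR adjusted p of 0.0242). Fdps, which makes farnesyl diphosphate, had 69.2 and 51.0 CPM with Dox and 27.8 in the control (log2 difference of 1.12, edgeR adjusted p of 0.186). Mvd, the decarboxylase, and Acat2, the thiolase that starts the path, had 1 control UMI each. Their ratios of Dox to control were 5.42 for Mvd (0.872 to 224, 95% counting interval; adjusted p of 0.351) and 6.97 for Acat2 (1.15 to 285; adjusted p of 0.207), so neither was called. Over the 6 tested genes of the group, 2 rose and the median log2 difference was 1.95, and Pmvk, a kinase of the path, had 23.5 and 28.3 CPM with Dox and 30.9 in the control.

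Of 9 tested genes of the squalene and sterol steps, 2 rose and the median log2 difference was 0.98. Cyp51, the lanosterol demethylase (chromosome 5, 4081145 to 4104746, minus strand), had 154 and 164 CPM with Dox and 37.1 in the control. The Dox libraries were alike and above the control (log2 difference of 2.09, SE 0.40; edgeR adjusted p of 0.00377). Fdft1, squalene synthase (chromosome 14, 63145150 to 63179578, minus strand), had 73.4 and 88.7 CPM with Dox and 18.6 in the control, again without overlap (log2 difference of 2.10, SE 0.50; edgeR adjusted p of 0.0158). Msmo1, a sterol methyl oxidase, had 125 and 94.4 CPM with Dox and 46.4 in the control, and Sqle, squalene epoxidase, 80.3 and 73.6 with Dox and 43.3 in the control. Both Dox libraries were above the control for each, and neither was called (edgeR adjusted p of 0.0720 and 0.249). Hsd17b7, a sterol ketoreductase, had 26.3 and 17.0 CPM with Dox and no UMI in the control, which makes it at least 2.41-fold higher, with the UMIs of both Dox libraries summed, at a floor of 3 control UMIs (edgeR adjusted p of 0.0799). Setting this gene to its bound left the medians at 1.12 and 0.98.

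Insig1, the sterol-dependent retention protein of the SREBPs and itself a known SREBP target (chromosome 5, 28071363 to 28078662, plus strand), had 72.0 and 71.7 CPM with Dox and 15.5 in the control. The Dox libraries were nearly equal, and the log2 difference was 2.20 (SE 0.52; edgeR adjusted p of 0.0157). Srebf2, the factor best known for sterol genes, had 95.5 and 81.2 CPM with Dox and 40.2 in the control, and it was not called (log2 difference of 1.14, edgeR adjusted p of 0.108). Srebf1, best known for fatty acid genes, had 18.0 and 20.8 CPM with Dox and 27.8 in the control (log2 difference of -0.53, adjusted p of 0.691).

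The fatty acid genes did not move as a block. Fasn, fatty acid synthase (chromosome 11, 120805846 to 120824547, minus strand), had 152 and 88.7 CPM with Dox and 27.8 in the control, and the lower Dox value was still above the control (log2 difference of 2.12, SE 0.49; edgeR adjusted p of 0.0137). It was the only one of 8 tested genes to pass, and the group's median log2 difference was -0.01. Scd2 and Scd1, the desaturases that make oleate, lay on the other side, with 850.1 and 898 CPM for Scd2 with Dox and 1410.3 in the control (log2 difference of -0.69, edgeR adjusted p of 0.203). Scd1 had 66.5 and 56.6 CPM with Dox and 121 in the control (log2 difference of -0.96, edgeR adjusted p of 0.0985). Acly and Acaca, which supply the building blocks, differed by -0.43 and 0.13 and were not called. Of the tested genes not named so far, Ebp (-0.41), Elovl5 (-0.14), Nsdhl (0.41), Dhcr7 (0.71), Fads1 (0.78), Sc5d (0.98), Elovl6 (1.39) and Stard4, with 2 control UMIs, were not called either. Mvk, Lss, Tm7sf2 and Fads2 were too low to test, with 2, 1, 0 and 3 control UMIs.

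**Figure D1:**
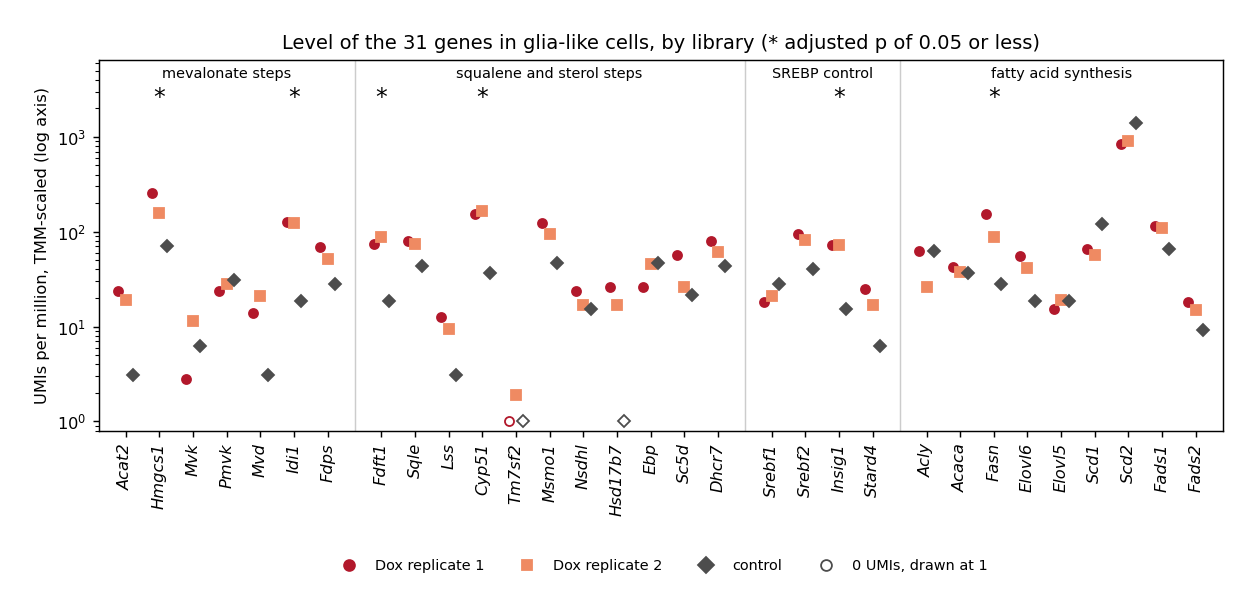
Level of each of the 31 genes in glia-like cells, in CPM on a log axis, with 1 point per library (Dox replicate 1, Dox replicate 2, control) and genes ordered by role; a star marks an adjusted p of 0.05 or less and an open point 0 UMIs, drawn at 1. The 6 starred genes have both Dox points above the control point, while both Dox points of Scd1 and Scd2 lie below it.

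The transgene readouts differed in the same cells. Myc had 108 and 71.7 CPM with Dox and 27.8 in the control (log2 difference of 1.70, edgeR adjusted p of 0.0370), and Notch1, whose intracellular part is encoded by the transgene, 662 and 374 with Dox and 61.9 in the control (log2 difference of 3.07, adjusted p of 0.000475). UMIs at the 3′ end were not assigned to transgene or endogenous transcripts. Of 15 tested glial markers 5 fell and none rose, and their summed level was 2989 and 3798 CPM with Dox and 6965 in the control. The fibroblast list summed to 1799.9 and 1085 CPM with Dox and 1633 in the control, with 3 of 7 tested genes higher and 1 lower. The cycling cell list stood at 95.5 and 7.55 CPM with Dox and 9.28 in the control, and the macrophage list at 44.3 and 9.44 with Dox and 6.19 in the control, where C1qa, C1qb, Csf1r and Tyrobp were at 0. The part of these shifts in the results above was not tested. No shallower copy of a shared barcode was in this class.

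In supporting cell-like cells, 6 of the 31 genes rose and 2 fell, and all 31 passed the filter. Over all 11423 genes tested in the class, 6.1% rose and 4.62% fell, so the count of falls is near that of all genes. The genes that rose were Idi1, Hmgcs1, Fdps and Mvd of the mevalonate steps, Cyp51 and the elongase Elovl6, and those that fell were Scd1 and Scd2. The median log2 difference was 0.50 over the 31 genes and 0.04 over all genes tested. DESeq2 called Idi1, Hmgcs1 and Scd1. Scaling by total counts alone, with a median of -0.22 over all genes, gave 3 risen (Idi1, Hmgcs1 and Fdps) and the same 2 fallen.

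The mevalonate group held 4 of the 6. Idi1 had 113 and 125 CPM with Dox and 26.3 in the control, where 20 UMIs were counted. The Dox libraries were close together and above the control (log2 difference of 2.18, SE 0.25; edgeR adjusted p of 0.00297). Hmgcs1 had 118 and 139 CPM with Dox and 47.3 in the control (log2 difference of 1.44, SE 0.23; edgeR adjusted p of 0.0122). Fdps (chromosome 3, 89093588 to 89101959, minus strand) had 58.9 and 55.9 CPM with Dox and 18.4 in the control (log2 difference of 1.64, SE 0.29; edgeR adjusted p of 0.0155). For both genes the Dox libraries were alike and the control was below them. Mvd had 14.1 and 17.1 CPM with Dox and 2.63 in the control, which rests on 2 control UMIs and gives a ratio of 5.89 (1.59 to 49.3, 95% counting interval; edgeR adjusted p of 0.0485). This call was lost under 11 of 15 alternatives with a test. The group's median log2 difference was 1.44, and the kinase gene Mvk, at 7.73 and 13.9 CPM with Dox and 13.1 in the control, was the one of 7 with a value below 0.

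Of 11 genes of the squalene and sterol steps, Cyp51 alone was called, with 87.4 and 102 CPM with Dox and 42.04 in the control (log2 difference of 1.17, SE 0.24; edgeR adjusted p of 0.0286). Fdft1, which rose in glia-like cells, had 30.4 and 35.2 CPM with Dox and 31.5 in the control, so the control lay between the Dox libraries. Dhcr7, the reductase of the last step, had 11.2 and 21.0 CPM with Dox and 5.25 in the control, from 4 UMIs (log2 difference of 1.59, edgeR adjusted p of 0.211). Tm7sf2, a sterol reductase, had 5.86 and 4.53 CPM with Dox and 10.5 in the control (log2 difference of -0.999, adjusted p of 0.332). None of the 4 genes of SREBP control and sterol transfer was called. Insig1 had 66.9 and 59.2 CPM with Dox and 44.7 in the control, Srebf2 74.3 and 63.7 with Dox and 94.6 in the control, and Srebf1 22.9 and 24.9 with Dox and 40.7 in the control (edgeR adjusted p of 0.240, 0.229 and 0.127).

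Scd1 (chromosome 19, 44394455 to 44407879, minus strand) had the lowest fitted difference of the 31 in this class, with 130.3 and 104 CPM with Dox and 435 in the control. The 2 Dox libraries were similar and well below the control (log2 difference of -1.89, SE 0.19; edgeR adjusted p of 0.00177). Scd2 had 509 and 542 CPM with Dox and 772 in the control (log2 difference of -0.56, SE 0.14; edgeR adjusted p of 0.0485), a call lost under 10 of 17 alternatives. Elovl6, which lengthens palmitate (chromosome 3, 129532355 to 129638495, plus strand), had 35.7 and 33.9 CPM with Dox and 13.1 in the control (log2 difference of 1.40, SE 0.33; edgeR adjusted p of 0.0423), and was not called under 7 of 16 alternatives. Fasn had 81.8 and 79.9 CPM with Dox and 84.1 in the control, a log2 difference of -0.06. The elongase Elovl5 (log2 difference of -0.46, adjusted p of 0.363) and the desaturase Fads2, with 2 control UMIs (ratio of 4.17, 1.11 to 35.1; adjusted p of 0.191), were not called.

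**Figure D2:**
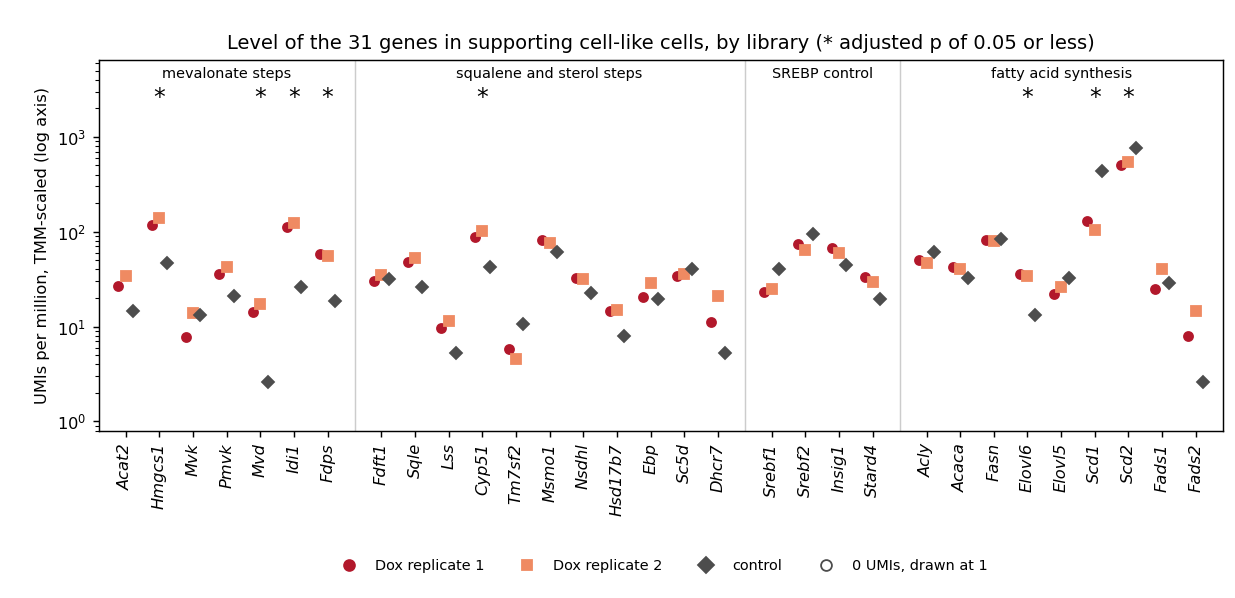
Level of each of the 31 genes in supporting cell-like cells, in CPM on a log axis, with 1 point per library (Dox replicate 1, Dox replicate 2, control); a star marks an adjusted p of 0.05 or less. The starred mevalonate genes lie above the control in both Dox libraries, and Scd1, at 130.3 and 104 with Dox and 435 in the control, lies below it.

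This class was made of 2 clusters in unequal parts. A cluster led by Epyc, with Aqp4 and Otogl, held 46 of 103 and 80 of 108 Dox cells and 12 of 38 control cells, and the other, with Gjb6, Gjb2 and Sox2, held 57 and 28 Dox cells and 26 control cells. In the Epyc cluster alone, 6 of the 31 genes rose (Idi1 3.104, Pmvk 2.39, Fdps 2.15, Hmgcs1 2.09, Cyp51 1.87 and Msmo1 1.85 on the log2 scale) and Scd1 (-2.65) and Scd2 (-0.75) fell. Of all 10644 genes tested there, 423 rose and 421 fell. Its 12 control cells are fewer than the 20 asked of a class. Idi1 there had 138 and 126 unscaled CPM with Dox and 16.7 in the control, and Scd1 had 82.9 and 88.3 with Dox and 588 in the control. In the other cluster none of the 29 genes tested was called by edgeR, with 5 higher and 3 lower at an unadjusted p of 0.05 or less. At the adjusted threshold 381 of all 8300 genes tested there rose and 166 fell. Idi1 there had 71.8 and 88.3 unscaled CPM with Dox and 50.7 in the control (log2 difference of 1.12, edgeR adjusted p of 0.121), and Scd1 161 and 134 with Dox and 328 in the control. The difference between the 2 clusters was not tested. Of the 8 genes called in the whole class, Elovl6 and Mvd were called in neither cluster. Elovl6 had 38.5 and 32.3 unscaled CPM with Dox and 21.4 in the control in the Epyc cluster (edgeR adjusted p of 0.225), and 27.8 and 31.3 with Dox and 3.901 in the control in the other (adjusted p of 0.0560). Mvd had 13.6 and 15.2 with Dox and 4.76 in the control in the Epyc cluster, and 12.6 and 19.9 with Dox and no UMI in the control in the other (adjusted p of 0.202 and 0.105). For both genes the control was further below the Dox libraries in the cluster without Epyc, where the control sum was 256361 UMIs. Both control values there, and that of Mvd in the Epyc cluster, rest on fewer than 3 UMIs, so the clusters cannot be ordered by them. With each library clustered on its own, none of the 31 was called in this class, nor was any of the 11411 genes tested.

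**Figure D3:**
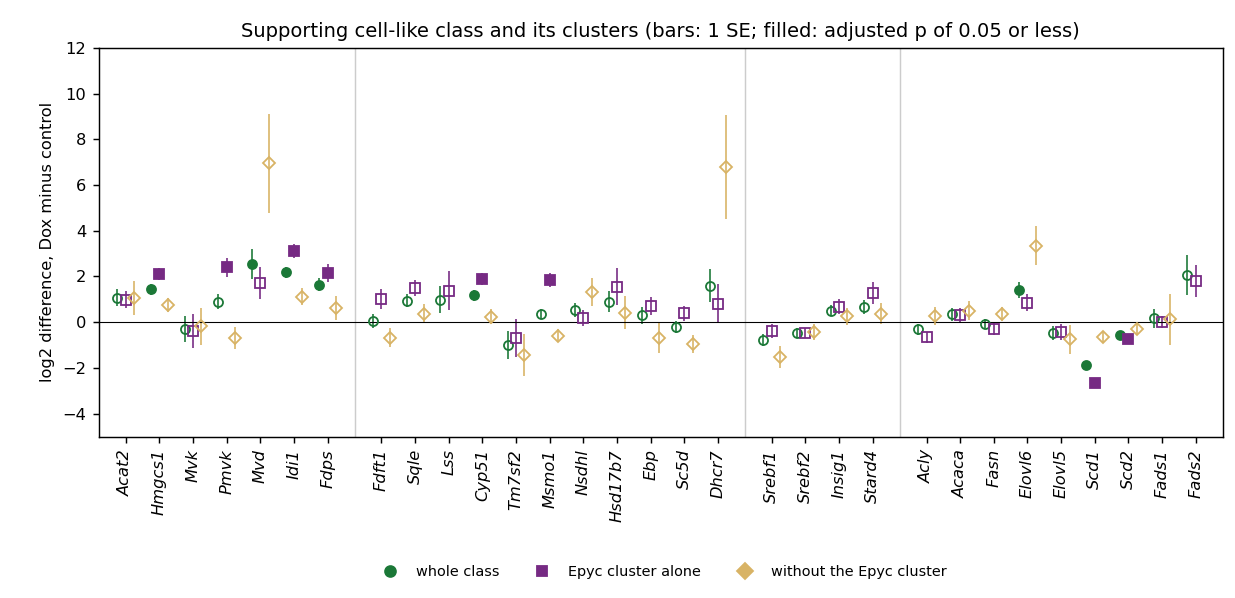
Fitted log2 difference of Dox minus control for each gene in the whole supporting cell-like class, in its Epyc cluster alone and without that cluster. Bars are 1 SE, derived from the F statistic, and filled symbols have an adjusted p of 0.05 or less. Idi1 stands at 2.18, 3.104 and 1.12 in these 3 sets, and no symbol of the set without the Epyc cluster is filled.

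Other markers moved in these cells too. Of 10 cycling cell genes 8 rose, and their summed level was 329.9 and 249 CPM with Dox and 17.1 in the control, where Cdk1, Tpx2 and Ube2c were at 0. Of 17 tested supporting cell markers 3 rose and 6 fell, with sums of 2181.6 and 2255 CPM with Dox and 5456 in the control, where Hes5 and Tecta were at 0. The fibroblast list summed to 172 and 615 CPM with Dox and 1294 in the control, with 1 of 7 tested genes fallen. Cells with little RNA of the nuclear transcript Malat1 made up 37.9% and 16.7% of the Dox cells and 39.5% of the control cells. The part of these in the differences above was not tested. Myc had 51.7 and 60.1 CPM with Dox and 24.96 in the control (log2 difference of 1.16, edgeR adjusted p of 0.0455), and Notch1 481 and 380.2 with Dox and 88.0 in the control (2.29, adjusted p of 0.00170).

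In macrophage-like cells none of the 23 genes tested was called by edgeR or by DESeq2, and 3 were higher and none lower at an unadjusted edgeR p of 0.05 or less. At the adjusted threshold, 1.2% of all 7745 genes tested in the class rose and 0.788% fell, 1.99% in all. The median log2 difference was 0.75 over the 23 genes and 0.05 over all genes. Without Dox replicate 1 it was 1.06, and without Dox replicate 2 it was 0.29. The highest values belonged to Pmvk, with 98.6 and 52.8 CPM with Dox and 22.2 in the control (edgeR adjusted p of 0.243), to Cyp51, with 28.8 and 82.97 with Dox and 19.5 in the control (0.471), and to Dhcr7, with 1 control UMI. Acat2, Mvk, Fdft1, Lss, Tm7sf2, Hsd17b7, Scd1 and Fads2 were too low to test, with 1 to 3 control UMIs each. Idi1 had 20.5 and 82.97 CPM with Dox and 36.1 in the control, so the Dox libraries lay on either side of it. Insig1 had 23.3 and 36.2 with Dox and 33.4 in the control, and the log2 differences of Srebf1, Srebf2, Acaca and Ebp, a sterol isomerase, were -0.83, 0.46, -0.81 and -0.87. In these cells the other epithelium list summed to 97.2 and 810.1 CPM with Dox and 22.2 in the control, where Epcam and Krt8 were at 0, and 3 of its 9 tested genes rose; its part in the values of Dox replicate 2 was not tested. The macrophage list summed to 27299.5 and 10962 CPM with Dox and 24654 in the control, and the neutrophil or monocyte list to 25384 and 17898 with Dox and 14890.1 in the control, where Camp and Ltf were at 0, with 3 of its 12 tested genes higher and 1 lower. At resolution 2 the class was split, into 42 and 12 Dox cells and 19 control cells named as macrophage-like and 7 and 17 Dox cells and 4 control cells named as of neutrophil or monocyte lineage. The part of this makeup in the values of the class was not tested. Myc had 24.6 and 42.2 CPM with Dox and 52.8 in the control (log2 difference of -0.66, edgeR adjusted p of 0.975), and Notch1 175 and 161 with Dox and 66.7 in the control (1.33, adjusted p of 0.391).

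**Figure D4:**
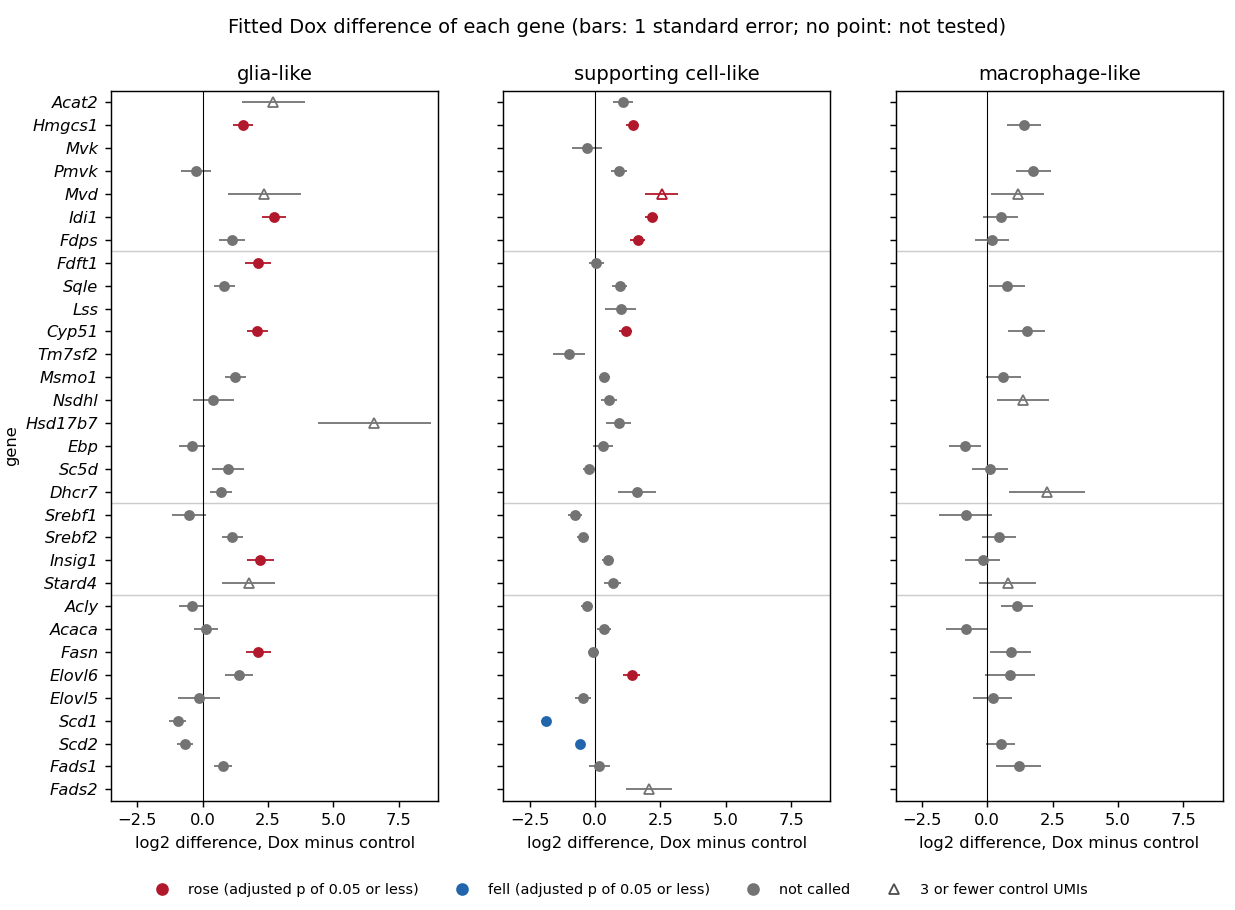
Fitted log2 difference of Dox minus control for each gene in glia-like, supporting cell-like and macrophage-like cells. Bars are 1 SE, derived from the F statistic. Red points rose, blue points fell, grey points were not called, and open triangles rest on 3 or fewer control UMIs. Idi1, Hmgcs1 and Cyp51 are red in the first 2 panels, and no point is coloured in the third.

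Idi1, Hmgcs1 and Cyp51 were the genes called in both glia-like and supporting cell-like cells. The difference between the Dox effects of the 2 classes was itself tested in 1 model with the library as a block. None of the 29 genes tested was called by edgeR at an adjusted p of 0.05 or less, and 6 had an unadjusted p of 0.05 or less. Over all 9843 genes, 0.437% were called in each direction, and 1194 had an unadjusted p of 0.05 or less. The Dox effect of Fasn was larger in glia-like cells by 2.20 (SE 0.54; edgeR adjusted p of 0.0897), that of Fdft1 by 2.10 (SE 0.60; adjusted p of 0.151) and that of Srebf2 by 1.63 (SE 0.45; adjusted p of 0.138), on the log2 scale. For Insig1 and Scd1 the differences were 1.75 and 0.96 (adjusted p of 0.263 and 0.315), and Hsd17b7, which has no control UMI in glia-like cells, was the sixth. With edgeR's legacy fit Fasn was called. Idi1 differed between the classes by 0.61 (SE 0.61) and Hmgcs1 by 0.13. Between glia-like and macrophage-like cells none of 27 genes was called (0% of all 9511 genes in either direction). Insig1 alone of the 27 had an unadjusted p of 0.05 or less, with a difference of 2.36 (edgeR adjusted p of 0.802), as had 555 of the 9511 genes. Between supporting cell-like and macrophage-like cells none of 28 was called (0% of 9881 genes), with Acly (-1.49) and Scd2 (-1.12) at an unadjusted p of 0.05 or less. Of all 9881 genes, 859 were at that threshold, so these 2 of 28 are near the share of all genes.

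Summed over a group, the mevalonate genes reached 515 and 409.6 CPM in glia-like cells with Dox and 161 in the control, 375 and 427 in supporting cell-like cells with Dox and 143 in the control, and 223 and 323 in macrophage-like cells with Dox and 142 in the control. The 2 Dox libraries were above the control in all 3 classes. The squalene and sterol genes gave 658 and 598 with Dox and 275 in the control in glia-like cells, and 377 and 415 with Dox and 273 in the control in supporting cell-like cells. SREBP control and sterol transfer stood at 210.4 and 191 with Dox and 89.7 in the control in glia-like cells, and at 197 and 178 with Dox and 199.7 in the control in supporting cell-like cells. The fatty acid group, in which Scd2 takes the largest share of UMIs, was lower with Dox in both classes, at 1376 and 1293 with Dox against 1769 in the control in glia-like cells and at 904 and 928 against 1462 in supporting cell-like cells. In glia-like cells the direction rests on Scd2: without it the group had 468 and 378 unscaled CPM with Dox and 390.1 in the control, which lay between the Dox libraries. In supporting cell-like cells it was lower without Scd2 too, at 368 and 364.6 unscaled CPM with Dox and 776 in the control. In macrophage-like cells it was higher with Dox, at 319 and 410.3 against 242. These sums carry no test.

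**Figure D5:**
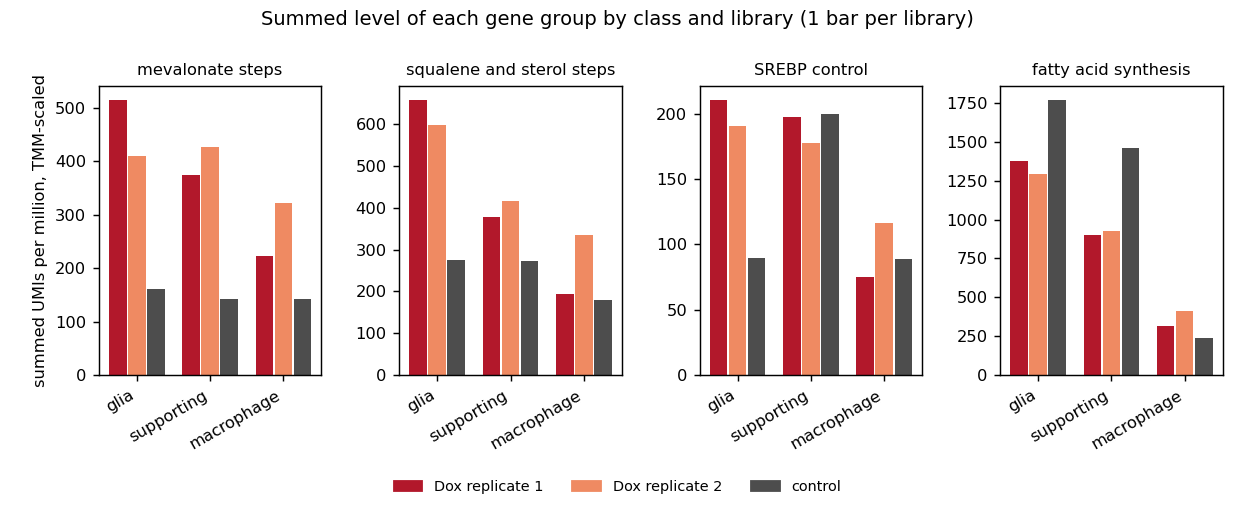
Summed CPM of the 4 role groups in glia-like, supporting cell-like and macrophage-like cells, 1 bar per library (Dox replicate 1, Dox replicate 2, control), each panel with its own axis from 0. The mevalonate bars are higher with Dox in all 3 classes (515 and 409.6 against 161 in glia-like cells), and the fatty acid bars are lower with Dox in glia-like and supporting cell-like cells.

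Pooling all epithelium-like cells (149 and 232 with Dox, 41 in the control), 8 of the 31 genes rose and 1 fell, while 9.57% of the 12625 genes tested rose and 7.84% fell. The 8 were Fdps, Idi1, Elovl6, Cyp51, Hmgcs1, Mvd, Sqle and Fads2. Fdps had 76.2 and 75.6 CPM with Dox and 16.9 in the control (log2 difference of 2.16, SE 0.26; edgeR adjusted p of 0.00138), and the Dox libraries were nearly equal. Scd1 was the gene that fell, with 85.7 and 57.3 CPM with Dox and 352 in the control (log2 difference of -2.30, SE 0.23; edgeR adjusted p of 0.000571). Mvd and Fads2 rest on 3 and 2 control UMIs, with ratios of 5.18 (1.75 to 25.3) and 6.89 (1.89 to 57.3). The calls of Sqle and Fads2 were lost under 12 and 9 of 14 alternatives with a test. When each library was clustered on its own, none of the 31 genes was called, nor was any of the 12832 genes tested. The median log2 difference was 0.45 over the 31 genes and 0.09 over all genes. Scaling by total counts alone gave 5 risen and 3 fallen, with Scd2 and Srebf1 beside Scd1. Srebf1 (-0.70), Srebf2 (-0.18) and Insig1 (0.24) were not called, nor were Scd2 (-0.42), Tm7sf2 (-0.95), Acat2 (0.96), Lss, lanosterol synthase (1.67), and Dhcr7 (1.96). This pool holds the supporting cell-like cells and 46 and 124 Dox cells and 3 control cells of another epithelial cluster, so its makeup differs between the libraries. Myc rose by 1.40 and Notch1 by 2.43 on the log2 scale (edgeR adjusted p of 0.00866 and 0.000324).

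Over all kept cells, 3 of the 31 genes rose and none fell, while 7.44% of 15426 genes rose and 6.7% fell, so the count is near that of all genes. At an unadjusted p of 0.05 or less 14 of the 31 were higher and 1 lower, with no share of all genes given at that threshold. With DESeq2's size factors Scd1 was called as fallen as well (3 risen, 1 fallen), and DESeq2's own test called 6 risen and 1 fallen. Fasn had 78.6 and 86.2 CPM with Dox and 40.9 in the control (log2 difference of 1.01; edgeR adjusted p of 0.0341). Fdps had 67.1 and 80.4 with Dox and 26.2 in the control (1.49, adjusted p of 0.0300), and Mvd 14.4 and 17.9 with Dox and 3.63 in the control (2.16, adjusted p of 0.0365). Idi1, at 97.3 and 139 CPM with Dox and 51.3 in the control, had a log2 difference of 1.21 and an edgeR adjusted p of 0.0634. Elovl6 (1.32), Fads2 (1.35), Scd1 (-1.18), Srebf1 (-0.40), Srebf2 (0.42), Elovl5 (-0.15) and Insig1 (0.36) were not called either. The mix of cell classes differs between these libraries, and its part in the sums was not tested: the fibroblast list gave 961 and 896 CPM with Dox and 7104 in the control, and the cycling cell list 1298 and 1526 with Dox and 464 in the control. Myc rose by 0.88 and Notch1 by 3.41 on the log2 scale (edgeR adjusted p of 0.0472 and 0.0184).

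Across the other cell classes the unscaled summed levels are given without a test, since a library often had too few cells. Fibroblast-like cells fell into 2 clusters. In the cluster that all 3 libraries shared, the mevalonate genes summed to 349 CPM in 12 cells and 352 in 85 cells with Dox and to 163 in 31 control cells, with medians of 918, 32960 and 4792 UMIs per cell, and in the other, with 82 control cells, to 347. Dox replicate 1 had 13 fibroblast-like cells in all, of which the deepest 3 held 92.3% of the UMIs and 9 were shallower copies of shared barcodes. Its value therefore rests on few cells. Pericyte-like cells had 198 and 376 CPM in the 2 Dox libraries, and the epithelial cluster led by Gabrp and Otoa 381 and 430. Among clusters with a median of over 10000 UMIs, the highest sums were in a pair of unnamed clusters without control cells, both with Mki67 among their leading genes, at 600 and 524 and at 473 and 608.

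In 6 further lists, 77 related genes were read in the same way. In glia-like cells 3 of 65 tested genes fell, close to the 3.64% over all genes. Npc1, which moves cholesterol out of lysosomes, had 47.1 and 54.7 CPM with Dox and 127 in the control (log2 difference of -1.32, edgeR adjusted p of 0.0243). Lipa, the lysosomal lipase, had 54.0 and 104 with Dox and 210.3 in the control (-1.44, adjusted p of 0.0189). Hadhb, of mitochondrial fatty acid oxidation, had 67.8 and 73.6 with Dox and 204 in the control (-1.53, adjusted p of 0.00511). In each case both Dox libraries were below the control. By list, 2 of 12 genes of sterol uptake, traffic and storage and 1 of 12 of fatty acid oxidation fell there. The tested genes of the other lists (9 of SREBP processing, 7 of LXR and efflux, 11 of the non-sterol isoprenoid branch and 14 other lipogenic enzymes) were not called. DESeq2 called no related gene as fallen in glia-like or supporting cell-like cells.

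In supporting cell-like cells 5 of 73 related genes fell, near the 4.62% over all genes. Among them were Npc1 (22.1 and 21.3 CPM with Dox, 47.3 in the control), Soat1, which esterifies cholesterol (39.2 and 55.6 with Dox, 105 in the control), Vldlr, a lipoprotein receptor (20.5 and 27.5 with Dox, 61.7 in the control), and Me1, a source of NADPH (193 and 185 with Dox, 327 in the control). The edgeR adjusted p of these 4 were between 0.0243 and 0.0422. None rose there, but up to 5 did under some alternatives. In macrophage-like cells 1 of 59 was called, a share near the 1.2% of all genes that rose, and it was Nr1h3, which encodes the sterol sensor LXR alpha, with 75.3 and 39.2 CPM with Dox and 2.78 in the control, from 1 control UMI (ratio of 20.9, 3.65 to 836; edgeR adjusted p of 0.00497). The neutrophil and macrophage lists given above differed between the same libraries, and their part in this value was not tested.

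In the pooled epithelium 7 of 75 related genes rose and 10 fell, against 9.57% and 7.84% of all genes, and over all cells 5 of 76 rose and 5 fell, against 7.44% and 6.7%. The 5 that rose over all cells also rose in the pool, whose cells are among them. They were Coq2 and Rabggtb, which use isoprenoids for ubiquinone and for the prenylation of Rab proteins, Acads and Etfa of mitochondrial fatty acid oxidation, and Acsl5, which activates fatty acids. In the pool they differed by between 0.81 and 1.66 on the log2 scale (edgeR adjusted p of 0.0179 to 0.0496). Npc1, Soat1, Vldlr and Me1 were among those that fell in the pool. The differing makeup of both sums, given above, applies to these counts as well.

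The share of cells with a UMI depends on depth, so it was read with every cell thinned to 1000 UMIs as well, leaving out shallower cells. At full depth Idi1 was found in 24 of 38 and 21 of 50 glia-like Dox cells and 5 of 28 control cells, where the median cell had 17786.5 and 10546.5 UMIs with Dox and 9911.5 in the control. After thinning the shares were 10.5% (4 of 38) and 12.2% (6 of 49) with Dox and 3.70% (1 of 27) in the control, with 95% Clopper-Pearson intervals of 2.94% to 24.8%, 4.63% to 24.8% and 0.0937% to 19.0%. The intervals overlap, but they cover counting error within a library only and are no test of a Dox difference in the share of cells. Cyp51 was found in 23 of 38 and 27 of 50 glia-like Dox cells and 6 of 28 control cells at full depth, and after thinning in 3 of 38 and 2 of 49 with Dox and 2 of 27 in the control, where no order can be read.

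Scd1 was found in 68 of 103 and 77 of 108 supporting cell-like Dox cells and 23 of 38 control cells at full depth, with medians of 26428 and 31869 UMIs with Dox and 8606.5 in the control. After thinning it was found in 8.60% (8 of 93) and 11.8% (12 of 102) with Dox and 29.4% (10 of 34) in the control, with intervals of 3.79% to 16.2%, 6.23% to 19.7% and 15.1% to 47.5%. The Dox shares of Scd1 were below the control share, with intervals that overlap in part. Idi1 was found in these cells after thinning in 3 of 93 and 14 of 102 with Dox and 2 of 34 in the control. Its control share (5.88%) lay between those of the Dox libraries (3.23% and 13.7%). Cyp51 was found after thinning in 9 of 93 and 12 of 102 with Dox and 1 of 34 in the control. In macrophage-like cells, which had medians of 7256 and 21458 UMIs with Dox and 7810 in the control, Scd1 was found in 1 of 49 and 1 of 29 Dox cells and 1 of 23 control cells at full depth.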

How the data were processed

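The assay was 10x Genomics 3′ single-cell RNA sequencing of dissociated cochlear sensory epithelium, with 2 Dox libraries and 1 control. The authors deposited filtered matrices of raw UMI counts per gene and barcode. Per the submitters' processing notes, STAR, Cell Ranger 5.0 and Seurat 3.2.2 were used with GRCm38 (mm10). The matrix headers name software version 3.1.0. The treatment of introns is not stated. 3′ UMI counts are not per length, so levels are compared between libraries and not between genes.

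Kept barcodes had 200 or more genes and no more than 20% mitochondrial UMIs. No doublet was removed. Cells were scaled to 10000 UMIs, and 2000 variable genes, leaving out the 31 genes and 77 related ones, gave 30 principal components, 15 neighbours and 21 Leiden clusters at resolution 1 (Python 3.11.15 with igraph 0.11.9, scanpy 1.11.5 and leidenalg 0.10.2). A cluster was named where at least 3 markers of a type were among its 25 leading genes, and 11 were named. UMI counts were summed per class and library and tested with edgeR 4.0.16 (R 4.3.3) by the quasi-likelihood F test after filterByExpr and TMM scaling. Adjustment was by Benjamini-Hochberg over all genes. The difference between classes was tested by the class by treatment term with the library as block. Cells are not replicates. Each library pooled 4 cultures, which left 1 residual degree of freedom per gene and a spread that may be technical. The edgeR fit moderates this spread over all genes tested, so its p-values rest on spread shared between genes as well. The control's own spread is unknown.

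Class sums were 4030764 and 3272080 UMIs with Dox and 676576 in the control for supporting cell-like cells. For glia-like cells they were 811525 and 553077 with Dox and 297333 in the control. For macrophage-like cells they were 756744 and 684884 with Dox and 357357 in the control. Ratios that rest on 1 to 3 control UMIs carry exact 95% counting intervals, and folds against 0 UMIs are bounds at 3 UMIs over the control. Intervals and bounds cover counting error only. Of 2-fold changes placed in simulated counts, the same steps recovered 6.45% in glia-like, 1.54% in supporting cell-like and 0% in macrophage-like cells. The shares were 54.2%, 36.5% and 29% for 4-fold changes and 91.2%, 75.9% and 96.4% for 8-fold changes. A gene not called in these classes may thus still differ by 2-fold. Gene positions are from GENCODE M21 (GRCm38) by gene identifier and promoters from RefSeq (GRCm38.p6).

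The 31 genes, the lists, the markers and the tests were chosen with earlier results of these data known. In each class the text names every member called, the 3 highest and 3 lowest others with at least 20 UMIs, Srebf1, Srebf2, Insig1, Myc and Notch1, and of the related lists genes called, at most 4 per list. Some called genes of the related lists are not reported here, most of them in the pooled epithelium and in all cells. Any other gene named was chosen after its values were seen. Alternatives were other scalings, DESeq2 1.42.0, no low-count filter, resolutions of 0.5 and 2, edgeR's legacy fit, the listed genes left among the variable genes, each library clustered alone, a strict cell filter (500 genes, 10% mitochondrial), cells of little Malat1 left out, each Dox library left out and thinning to 1000 UMIs per cell. Leaving out the deepest 3 cells per class, shared barcodes or their shallower copies, and the Epyc cluster alone or left out, as well as the comparison of supporting cell-like with macrophage-like cells, were chosen after seeing the data.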

Additional observations from a re-analysis of the deposited data

Results flagged for a closer look

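Signal of the 31 genes was also present in barcodes that no comparison used. In the barcodes left out for few genes or many mitochondrial UMIs, the 31 genes summed to 2473 CPM (unscaled UMIs per 1000000) in Dox replicate 1 (780 UMIs in 152 barcodes) and 1246 in Dox replicate 2 (170 UMIs in 98 barcodes), above 212 in the control (28 UMIs in 149 barcodes). The mevalonate genes gave 403 and 205 CPM with Dox and 22.7 in the control, the last from 3 UMIs. These CPM are relative to all UMIs, mitochondrial ones included, which summed to 315358 and 136389 with Dox and 132284 in the control. The left-out barcodes were not named by cell class. The part of their makeup or of mitochondrial UMIs in these values was not tested.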

How the results depend on the processing

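No paired analysis was possible because the control is 1 library whose label carries no replicate number. Leaving out a Dox library left no residual degree of freedom, so it gave values without a test. The median log2 difference then ran from 0.77 to 1.27 in glia-like cells, 0.51 to 0.55 in supporting cell-like cells, 0.29 to 1.06 in macrophage-like cells, 0.38 to 0.46 in the pooled epithelium and 0.34 to 0.70 in all cells. The cause of the changes below was not tested, except that thinning leaves few genes to test.

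In glia-like cells (6 risen, 0 fallen; related genes 0 and 3), DESeq2's test gave 1 risen and 0 related fallen. Without the low-count filter 2 rose and 1 related gene fell. With the deepest 3 cells left out 1 fell, and with each library clustered alone 1 fell and 1 related gene rose and 5 fell. Total count scaling gave 2 fallen and 5 related fallen. Thinning left Scd2 as the only gene tested, with 0 risen, 1 fallen, 0 related fallen and a median of -1.27, the reverse of 1.12. Idi1 was called under all 14 alternatives with a test, with edgeR or DESeq2 adjusted p between 4.51e-06 and 0.0474. Cyp51 was lost under 1, Fdft1 and Insig1 under 2, and Fasn and Hmgcs1 under 3. Resolution 0.5, resolution 2, the listed genes among the variable genes and shallower copies left out gave the main fit of this class again. Those alternatives are among the 14 and could not have lost a call.

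In supporting cell-like cells (6 risen, 2 fallen, median 0.50, related 0 and 5), clustering each library alone gave 0 risen, 0 fallen, 0 related fallen and a median of 0.21. That fit called none of all 11411 genes tested. Without the Epyc cluster there were 0 risen, 0 fallen, 1 related risen, 0 related fallen and a median of 0.26, and the Epyc cluster alone had a median of 0.81. DESeq2's test gave 2 risen, 1 fallen and 0 related fallen, and total count scaling 3 risen with a median of 0.23. Thinning left 6 genes with 0 risen, 0 fallen, 0 related fallen and a median of 0.71, and turned Scd2 to 0.15 (edgeR adjusted p of 0.852). Scd2 was also lost, leaving 1 fallen, under the legacy fit, no filter (median 0.56), resolution 0.5 (3 related fallen), resolution 2 (4 related risen, median 0.19) and without shallower copies. The number of related genes that rose was 3 with DESeq2's size factors, 5 without the deepest 3 cells (3 related fallen, median 0.44), 1 without cells of little Malat1, 2 with the listed genes among the variable genes, 5 without shared barcodes (median 0.36) and 4 under the strict filter (8 related fallen, median 0.28). The strict filter lost Scd2 and called Hsd17b7 as fallen in its place, at -1.12 (edgeR adjusted p of 0.0116) against 0.90, not called, without it.

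In the pooled epithelium (8 risen, 1 fallen, median 0.45), DESeq2's test gave 4 risen, clustering alone 0 and 0 (median 0.34), resolution 2 gave 4 risen (0.35), resolution 0.5 gave 2 fallen (0.54), thinning 0 risen (0.30) and total count scaling 5 risen and 3 fallen (0.18). Clustering alone called none of all 12832 genes tested. Leaving out the deepest 3 cells, or the strict filter (Hsd17b7 at -1.42 against -0.07), gave 2 fallen, and leaving out shared barcodes a median of 0.54. Related genes there (7 risen, 10 fallen) numbered 0 and 4 with DESeq2's test, 0 and 0 with clustering alone or thinning, 4 and 3 at resolution 2, 4 and 4 without shared barcodes and 3 and 18 with total count scaling. Over all cells (5 and 5) they numbered 0 and 10 with total count scaling and 0 and 3 without shared barcodes, with 0 risen after thinning and 3 risen without the deepest 3 cells or cells of little Malat1. In macrophage-like cells the related gene was lost (0 risen) under DESeq2's test, the legacy fit, no filter and without the deepest 3 cells, which also gave a median of 2.19. In all cells DESeq2's test and no filter gave 6 risen and 1 fallen, size factors 1 fallen, thinning 0 risen and 1 fallen and total count scaling a median of 0.24. Between glia-like and supporting cell-like cells, the legacy fit called 1 gene (Fasn) and resolution 2 called 2 (Fasn and Fdft1). Total count scaling moved the median of all genes to -0.22 in glia-like and supporting cell-like cells, -0.18 in the pooled epithelium and -0.30 in all cells, and in glia-like cells 268 genes then rose and 616 fell, against 249 and 277. Under resolution 2, the strict filter, little Malat1 left out or shared barcodes left out, macrophage-like cells fell under 20 in a library and were not tested.

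Depth limits the small classes most: 28 glia-like and 23 macrophage-like control cells carry 297333 and 357357 UMIs, so 8 of the 31 genes had 3 or fewer control UMIs in glia-like cells. A gene that was not called is not shown to be unchanged.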
